A study of Mus musculus with 6 samples.

Results

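The enzymes that build purine and pyrimidine nucleotides were described in sorted bone marrow progenitors of mice that had received marrow with the transcription factor Evi1 or a control vector. The group holds 30 genes listed by name for their enzymatic step: 6 of the purine pathway up to inosine monophosphate, 5 that turn this product into guanine and adenine nucleotides, 5 of the pyrimidine pathway, 7 of deoxynucleotide supply, 2 of folate metabolism and 5 nucleotide kinases. All 30 were found as 1 row each among the 38924 rows of the deposited expression table. Each of them reached 1 RPKM in every library, so a filter on low values removed none, and all 30 were among the 10958 genes tested. The table names no unit, and RPKM was inferred from its values. RPKM counts reads per kilobase of transcript, scaled to the size of the library. If the unit is right, levels of different genes can be set side by side. The transcript lengths used are not given.

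RNA was sequenced from 6 libraries in 3 groups of 2. The leukemia group came from C57BL/6 recipients of marrow transduced with Evi1-GFP, collected at 6 months, the preleukemia group from recipients of Evi1-GFP marrow at 4 weeks, and the mock group, also at 4 weeks, from recipients whose donor marrow carried the GFP vector without Evi1. In all groups the cells were transduced and transplanted, and were sorted as GFP+, negative for lineage markers and positive for c-kit, the receptor of stem and early progenitor cells. None of the 6 libraries holds the GFP vector alone at 6 months. Leukemia and time after transplantation therefore cannot be told apart in the comparisons of leukemia. Nothing in the labels tells whether the paired libraries are different animals, or how many animals each holds. The p-values therefore cover the spread from library to library alone, and that spread may be technical. The vector's promoter is not given in the sources used here.

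Cells make purines by building the ring stepwise on a ribose phosphate, and pyrimidines by closing the ring first and adding the ribose phosphate afterwards. Ribonucleotide reductase then converts ribonucleotides to deoxynucleotides, which replicating cells need for DNA. Dividing blood progenitors rely on these pathways, and several of the enzymes are targets of drugs used in leukemia and immune disease, among them thymidylate synthase, inosine monophosphate dehydrogenase and dihydroorotate dehydrogenase. Several steps have a pair of related enzymes encoded by separate genes.

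The promoters of both pairs at the inosine monophosphate branch are shown because the clearest differences of the 30 genes fell on one gene of each pair. Each run gives 250 bases before to 50 bases after an annotated start, 5′ to 3′ along the gene, from RefSeq on GRCm38.p6. Capitals mark CACGTG, the E-box bound by Myc with its partner Max, searched on both strands.
Impdh1, upstream start (chr6:29216315-29216614, minus strand): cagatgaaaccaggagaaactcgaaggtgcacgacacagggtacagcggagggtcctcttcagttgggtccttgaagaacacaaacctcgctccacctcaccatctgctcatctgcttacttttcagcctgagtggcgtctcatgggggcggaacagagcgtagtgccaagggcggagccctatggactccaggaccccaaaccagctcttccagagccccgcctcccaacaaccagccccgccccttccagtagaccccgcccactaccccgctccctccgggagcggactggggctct
Impdh1, inner start (chr6:29212248-29212547, minus strand): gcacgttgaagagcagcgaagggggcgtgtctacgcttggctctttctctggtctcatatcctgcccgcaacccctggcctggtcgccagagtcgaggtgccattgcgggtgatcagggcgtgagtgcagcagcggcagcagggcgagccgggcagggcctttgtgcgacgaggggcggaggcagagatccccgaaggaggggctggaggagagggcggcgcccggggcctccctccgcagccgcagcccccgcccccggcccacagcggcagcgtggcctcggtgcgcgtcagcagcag
Impdh2 (chr9:108560186-108560485, plus strand): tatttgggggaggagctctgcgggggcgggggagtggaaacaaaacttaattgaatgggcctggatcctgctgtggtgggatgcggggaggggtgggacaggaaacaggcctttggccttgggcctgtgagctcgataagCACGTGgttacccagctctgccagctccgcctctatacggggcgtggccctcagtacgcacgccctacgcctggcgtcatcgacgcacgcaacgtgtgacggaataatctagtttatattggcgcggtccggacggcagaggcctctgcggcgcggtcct
Adssl1 (chr12:112619797-112620096, plus strand): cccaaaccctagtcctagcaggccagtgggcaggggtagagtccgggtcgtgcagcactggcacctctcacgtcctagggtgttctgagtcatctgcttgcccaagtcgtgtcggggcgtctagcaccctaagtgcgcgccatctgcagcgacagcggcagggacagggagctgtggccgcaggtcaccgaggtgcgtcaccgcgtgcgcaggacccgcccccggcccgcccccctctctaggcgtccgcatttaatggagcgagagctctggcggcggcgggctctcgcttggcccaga
Adss (chr1:177796460-177796759, minus strand): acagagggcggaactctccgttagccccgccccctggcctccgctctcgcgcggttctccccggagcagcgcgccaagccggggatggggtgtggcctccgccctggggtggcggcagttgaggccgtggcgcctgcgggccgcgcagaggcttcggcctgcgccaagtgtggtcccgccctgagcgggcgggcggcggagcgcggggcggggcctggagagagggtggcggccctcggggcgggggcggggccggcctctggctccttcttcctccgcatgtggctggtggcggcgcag
Among these 5 windows only that of Impdh2 held the E-box, at -110 from the start, which counts from its first base. RefSeq windows matched 27 of the 30 genes, and 6 of the 27 (22.2%) held CACGTG, against 8.09% of the 27025 genes with a window. The 6 were Atic, Dtymk, Impdh2, Nme1, Paics and Tyms. The letters TTTNGCGC, an E2F site searched on both strands, were in the windows of 0 of the 27 genes, against 1.57% of all genes. With so low a share, 0 among 27 genes does not show a lack of E2F sites. Other forms of the E2F site were not searched. The share of G and C was 77.7% in the Adss window and 67.7% in that of Adssl1, and its median was 61.0% over the 36 windows of the 27 genes, against 52.7% over all 32851 windows. The median number of CG steps was 19 over the 36 windows and 7 over all windows. CACGTG itself holds a CG, and the shares of genes with it were not matched for this. The motif counts are matches of letters and say nothing of binding.

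Mecom, the gene that encodes Evi1, was the check of the labels and had 61.7 and 71.5 RPKM in leukemia, 78.02 and 80.1 in preleukemia and 0.774 and 0.805 in mock. Library totals, read from the step size of low values, were 16.9 to 21.6 M reads, at which 3 reads on a gene of 1 kb equal 0.139 to 0.177 RPKM, a floor for counting error only. The mock libraries stood apart from each other. The median absolute difference of log2(RPKM + 1) between the libraries of a group was 0.11 in leukemia, 0.11 in preleukemia and 0.22 in mock over all genes tested. For the 30 genes it was 0.16 in leukemia, 0.12 in preleukemia and 0.32 in mock, and 28 of the 30 were higher in mock library 1 than in mock library 2, as were 58.9% of all genes tested. Kit itself had 49.3 and 46.8 RPKM in leukemia, 60.03 and 56.9 in preleukemia and 69.2 and 57.7 in mock, so the sorted marker was present in every library. Summed progenitor markers (5 of 5 genes, Kit among them) had 474 and 453 RPKM in leukemia, 458 and 387 in preleukemia and 579 and 419 in mock. Marker lists of other cell types moved with the groups. Summed neutrophil markers (8 of 8 genes) had 408 and 710.0 RPKM in leukemia, 3852 and 8253 in preleukemia and 10.9 and 16.3 in mock, and summed erythroid markers (9 of 10 genes in the table) had 30.6 and 42.2 RPKM in leukemia, 254 and 178 in preleukemia and 404 and 189 in mock. Mast cell and basophil markers (7 of 7) had 19.1 and 19.1 RPKM in leukemia, 37.5 and 31.1 in preleukemia and 118 and 96.1 in mock, and B-lymphoid markers (6 of 7) had 12.5 and 11.9 RPKM in leukemia, 17.7 and 19.2 in preleukemia and 38.8 and 38.1 in mock. Megakaryocyte markers (5 of 5) had 3.20 and 11.5 RPKM in leukemia, 67.7 and 49.4 in preleukemia and 29.8 and 30.2 in mock. Monocyte and macrophage markers (7 of 8) were highest in leukemia, with 142 and 142 RPKM in leukemia, 73.4 and 65.5 in preleukemia and 82.3 and 104 in mock, as were stromal and endothelial markers (6 of 6), with 47.8 and 46.7 RPKM in leukemia, 30.1 and 22.95 in preleukemia and 33.6 and 37.1 in mock. T and NK cell markers (7 of 7) had 9.15 and 17.03 RPKM in leukemia, 78.4 and 80.5 in preleukemia and 88.9 and 48.96 in mock. Of the 6 stromal and endothelial genes and of the 7 T and NK genes, only 2 each reached 1 RPKM in any library. The megakaryocyte gene Gp1bb and the B-lymphoid genes Igll1 and Pax5 were at 0 in both leukemia libraries. In bulk RNA, fewer cells of a type and less RNA per cell cannot be told apart, and the part of these markers in the results was not tested.

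Levels of the 30 genes spanned from Rrm2b, with 2.61 ± 0.167 RPKM in leukemia, 2.59 ± 0.215 in preleukemia and 1.86 ± 0.326 in mock (SD, n = 2 each), to Impdh2, with 93.2 ± 12.05 RPKM in leukemia, 84.9 ± 5.72 in preleukemia and 112 ± 7.58 in mock. After Impdh2 the order by mean over the 6 libraries was Paics, Nme2, Adssl1 and Rrm1, and after Rrm2b, from the low end, Dhodh, Tyms, Guk1 and Tk1. The leukemia libraries held a summed 749 and 671 RPKM over the 30 genes, the preleukemia libraries 849.8 and 832 and the mock libraries 981 and 811. Both leukemia sums lay below every other sum, whereas preleukemia lay between the mock libraries.

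**Figure D1:**
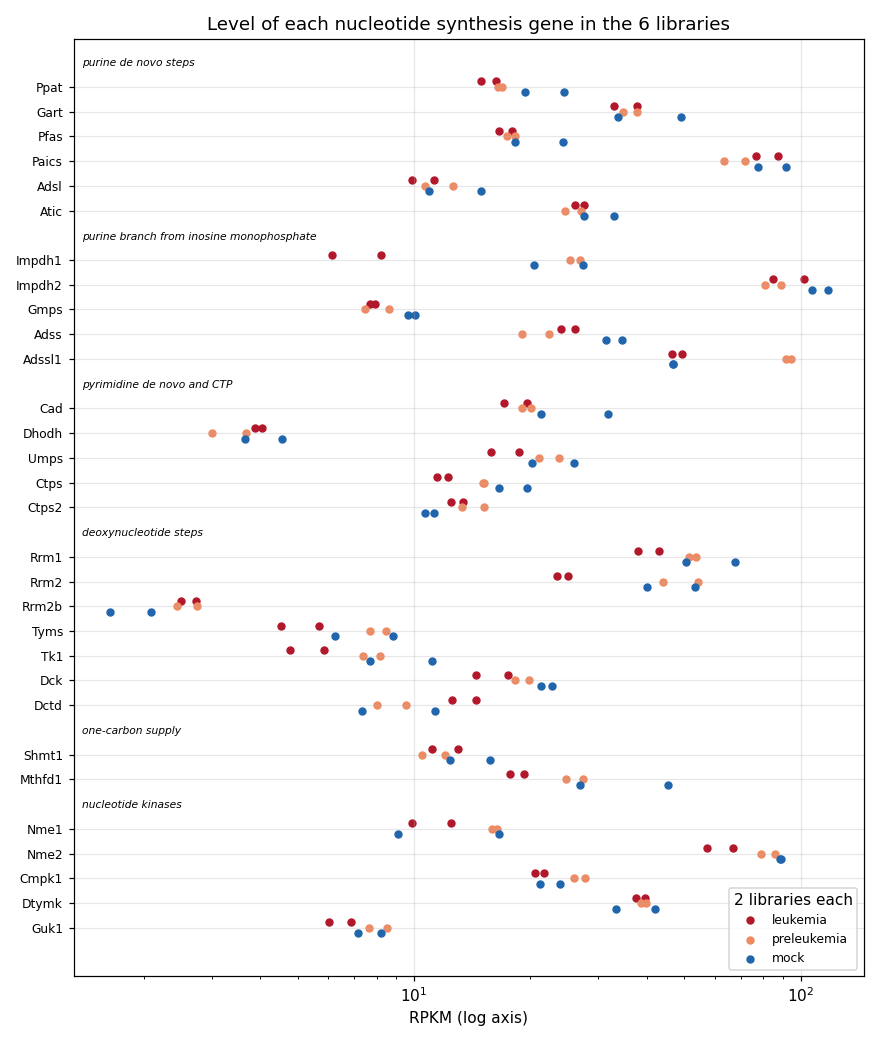
RPKM on a log axis for each of the 30 genes, by role, with 1 point per library and 2 libraries per group. The leukemia points of Impdh1 lie far left of the other groups (6.13 and 8.22 RPKM), and the preleukemia points of Adssl1 far right (91.4 and 94.2 RPKM).

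Groups were compared with limma's moderated test on log2(RPKM + 1), with p-values adjusted by the Benjamini-Hochberg method over all 10958 genes, and a gene was called at an adjusted p under 0.05. Leukemia against mock had 9 of the 30 genes lower and none higher, with 21 that did not pass. Over all genes tested 13.5% were called lower and 12.1% higher, 25.6% in all. The median log2 difference was -0.27 for the 30 genes and -0.04 for all genes, and 18 of the 30 had both leukemia libraries below both mock libraries, against 35.5% of all genes. The opposite held for 3 of the 30 and 30% of all genes. The 9 genes were Impdh1, Rrm2, Mthfd1, Tk1, Ctps, Rrm1, Nme2, Ppat and Dck. The count rested on the choice of libraries: it was 6 without mock library 1, 15 without mock library 2, 4 without preleukemia library 1 and 4 without preleukemia library 2. Dropping leukemia library 1 left 2 and dropping leukemia library 2 left 1. The count over all genes was 2809 with all libraries, 1005 with leukemia library 1 dropped and 980 with leukemia library 2 dropped. Markers of other lineages differed in both directions beside these genes. In leukemia against mock 8 of 9 tested erythroid genes and 7 of 7 mast cell and basophil genes were lower, 4 of 5 B-lymphoid genes were lower and 1 higher, and 2 of 5 megakaryocyte genes were lower. Of 8 neutrophil genes 3 were higher and none lower, and of 6 tested monocyte and macrophage genes 2 were higher and 2 lower. The 2 tested T and NK genes split into 1 higher and 1 lower, as did the 2 tested stromal and endothelial genes. Of 5 progenitor genes, Kit among them, 1 was lower and none higher. Their part in the count was not tested.

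Leukemia against preleukemia had 4 of the 30 genes lower (Impdh1, Rrm2, Adssl1 and Nme2) and none higher, with 26 that did not pass, where 13.0% of all genes were called lower and 5.27% higher, 18.3% in all. Both leukemia libraries lay below both preleukemia libraries for 15 of the 30 genes and 46.0% of all genes, and above them for 4 of the 30 and 24.7% of all genes. The median was -0.13 for the 30 genes and -0.09 for all genes. Quantile normalization moved the median of all genes by 0.12 in this comparison, to 0.03, and called Paics and Dctd higher, beside 3 genes lower. With a spread estimated from the 4 libraries compared, without the mock pair, 11 genes were lower and 1 higher (Dctd, 0.57), and the same counts came without mock library 1 and without mock library 2. The count of lower genes was 2 when preleukemia library 2, leukemia library 1 or leukemia library 2 was dropped.

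Preleukemia against mock had 1 of the 30 genes higher (Adssl1), 1 lower (Adss) and 28 that did not pass, where 13.5% of all genes were called higher and 6.02% lower, 19.5% in all. Both preleukemia libraries lay above both mock libraries for 4 of the 30 genes and 37.2% of all genes, and below them for 11 of the 30 and 25.5% of all genes. The median was -0.16 for the 30 genes and 0.05 for all genes. Without preleukemia library 2 no gene of the 30 was lower, without mock library 2 there were 5 and without mock library 1 there were 3 higher. The share of all calls that were higher was 69.2% in this comparison, 58.6% after scaling by trimmed means and 52.9% after quantile normalization. It was 28.8%, 42.0% and 50.8% in leukemia against preleukemia. The comparisons share groups, so they are not independent of each other.

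**Figure D2:**
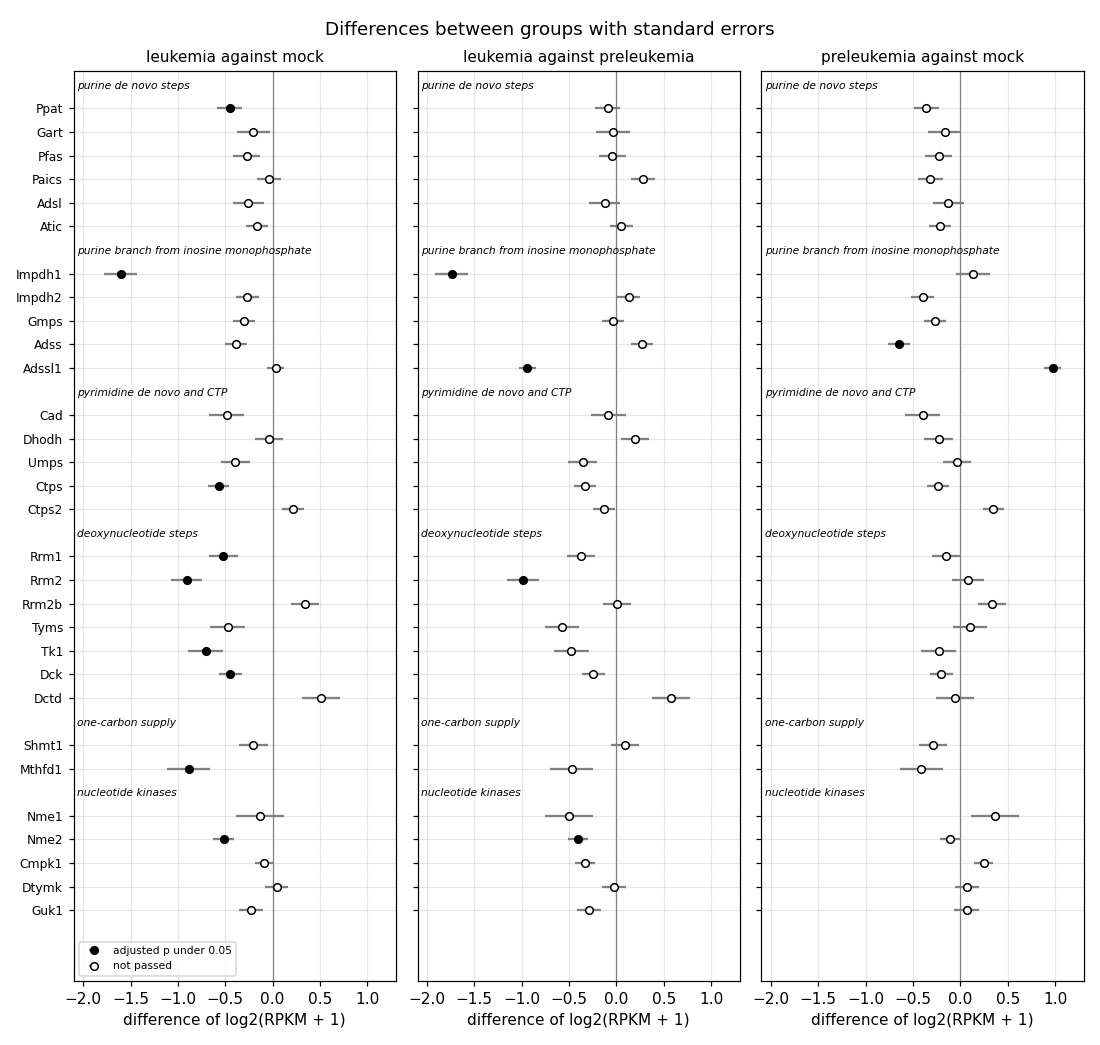
Difference of log2(RPKM + 1) with its standard error for each gene in the 3 comparisons, with filled points for an adjusted p under 0.05. Impdh1 stands apart at -1.61 and -1.74 in the comparisons of leukemia, and Adssl1 at 0.97 in preleukemia against mock and -0.94 in leukemia against preleukemia.

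**Figure D3:**
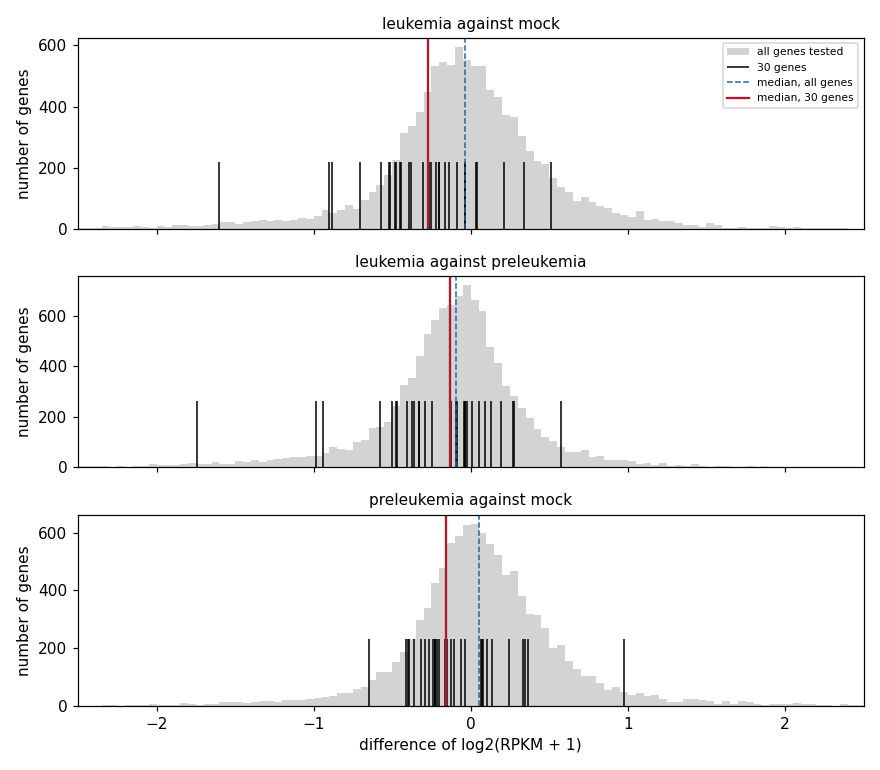
Number of genes by difference of log2(RPKM + 1) over all genes tested (grey), with the 30 genes as black lines and the medians of both marked. Genes beyond the ends of the axis are not shown, but the medians leave out no gene. The median of the 30 genes was -0.27 against -0.04 for all genes in leukemia against mock, -0.13 against -0.09 in leukemia against preleukemia and -0.16 against 0.05 in preleukemia against mock.

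The purine pathway up to inosine monophosphate had 1 called gene among its 6, the first enzyme. The call was lower in leukemia against mock, where 13.5% of all genes were called lower. Ppat, which encodes the amidotransferase of the committing step, had 16.3 and 14.9 RPKM in leukemia, 16.8 and 16.5 in preleukemia and 24.4 and 19.3 in mock. Both leukemia libraries lay below both mock libraries, and preleukemia lay between them. Ppat fell in leukemia against mock (-0.45, SE 0.13, adjusted p = 0.0459) and had -0.36 in preleukemia against mock, which did not pass (adjusted p = 0.0996). The Ppat call was lost without mock library 1 (-0.29, adjusted p = 0.0651), without preleukemia library 1 or 2 (0.0957 and 0.0954) and without leukemia library 1 or 2 (0.128 and 0.236). That call in leukemia against mock was also lost after quantile normalization, without a filter, without the trend and with the 4 libraries compared alone. In preleukemia against mock Ppat passed after scaling by trimmed means (-0.43, adjusted p = 0.0438).

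The other 5 genes of these steps did not pass in any comparison of the main test. Paics, which encodes a carboxylase joined to the synthetase of the next step, was the most abundant of them, with 87.5 and 76.6 RPKM in leukemia, 71.8 and 63.3 in preleukemia and 91.5 and 77.4 in mock. Its preleukemia libraries were the lowest and its leukemia and mock libraries overlapped (preleukemia against mock -0.32, adjusted p = 0.130; leukemia against preleukemia 0.28, adjusted p = 0.182). Paics did pass in preleukemia against mock after quantile normalization (-0.43, adjusted p = 0.0350) and with a replicate block (-0.32, adjusted p = 0.0449). Gart, which encodes a protein that carries out several steps of the ring, had 37.8 and 32.9 RPKM in leukemia, 37.6 and 34.8 in preleukemia and 49.1 and 33.8 in mock, and the groups overlapped in every comparison. Pfas, the amidotransferase that follows Gart's formyl transfer, had 17.95 and 16.6 RPKM in leukemia, 18.2 and 17.4 in preleukemia and 24.3 and 18.2 in mock. Adsl, the lyase that acts once in this pathway and again on the way to adenosine monophosphate, had 11.2 and 9.89 RPKM in leukemia, 12.6 and 10.7 in preleukemia and 14.9 and 10.96 in mock. Atic, which closes the ring, had 27.5 and 26.1 RPKM in leukemia, 26.98 and 24.6 in preleukemia and 32.97 and 27.5 in mock. All 6 had negative log2 differences in both comparisons with mock, between -0.36 and -0.13 in preleukemia and between -0.45 and -0.04 in leukemia, and in each the mock library 1 value was the highest of the 6 libraries. Ppat and Paics lie head to head on chromosome 5 (Ppat at 76913249 to 76951578 on the minus strand, Paics at 76951307 to 76967509 on the plus strand of GRCm38) and share 272 exon bases in GENCODE M21, whose reads a library without strand cannot assign.

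At the inosine monophosphate branch, the gene Impdh1 had the largest difference of the 30. Impdh1 and Impdh2 encode the dehydrogenases that commit inosine monophosphate to guanine nucleotides. Impdh1 (chromosome 6, 29200434 to 29216364, minus strand, ENSMUSG00000003500.13) had 6.13 and 8.22 RPKM in leukemia, 25.3 and 26.9 in preleukemia and 27.3 and 20.5 in mock. Both leukemia libraries lay far below the other 4, which overlapped between preleukemia and mock. As group means these were 7.17 ± 1.48 RPKM in leukemia, 26.1 ± 1.13 in preleukemia and 23.9 ± 4.85 in mock (SD, n = 2 each). Impdh1 fell in leukemia against mock (-1.61, SE 0.18, adjusted p = 0.00175; ratio of mean RPKM 0.300) and in leukemia against preleukemia (-1.74, SE 0.18, adjusted p = 0.00249; ratio 0.275). Both calls held without each of the 6 libraries in turn. The erythroid, mast cell, B-lymphoid, megakaryocyte and T and NK marker sums were likewise lowest in leukemia. The monocyte and macrophage sum and the stromal and endothelial sum were highest there. The part of these lists in the Impdh1 result was not tested. In preleukemia against mock the value was 0.13, which did not pass (adjusted p = 0.619).

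Impdh2 (chromosome 9, 108560286 to 108565584, plus strand, ENSMUSG00000062867.13), the form that carries the E-box in its window, had 102 and 84.7 RPKM in leukemia, 88.96 and 80.9 in preleukemia and 117 and 107 in mock. Its leukemia libraries lay below the mock libraries and overlapped with preleukemia, and no comparison passed (-0.27, SE 0.12, adjusted p = 0.152 in leukemia against mock; -0.40, SE 0.12, adjusted p = 0.0656 in preleukemia against mock). After scaling by trimmed means and after quantile normalization the preleukemia value passed (-0.47, adjusted p = 0.0304 and -0.50, adjusted p = 0.0221). Impdh1 made up 5.68% and 8.84% in leukemia, 22.1% and 24.95% in preleukemia and 18.9% and 16.1% in mock of the summed RPKM of the pair, so that Impdh2 was the more abundant transcript in every library. Gmps, which aminates the product of both to guanosine monophosphate, had 7.94 and 7.69 RPKM in leukemia, 8.62 and 7.46 in preleukemia and 9.64 and 10.1 in mock and did not pass (adjusted p = 0.0989 in leukemia against mock).

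The adenine arm showed opposite differences of its pair in preleukemia. Adssl1 and Adss encode adenylosuccinate synthetases, the first known as the muscle form and the second as the form found in most tissues. Adssl1 (chromosome 12, 112620045 to 112641360, plus strand, ENSMUSG00000011148.14) had 49.4 and 46.4 RPKM in leukemia, 91.4 and 94.2 in preleukemia and 46.8 and 46.7 in mock. Both preleukemia libraries stood far above the other 4, and leukemia and mock overlapped. Adssl1 rose in preleukemia against mock (0.97, SE 0.09, adjusted p = 0.00139; ratio of mean RPKM 1.98) and was lower in leukemia than in preleukemia (-0.94, SE 0.09, adjusted p = 0.00220; ratio 0.516), and both calls held without each library in turn. Leukemia against mock gave 0.03 (adjusted p = 0.803). Adss (chromosome 1, 177762962 to 177796511, minus strand, ENSMUSG00000015961.8) had 26.1 and 23.96 RPKM in leukemia, 22.4 and 18.99 in preleukemia and 31.3 and 34.6 in mock. Its preleukemia libraries were the lowest and its mock libraries the highest, without overlap between any groups. Adss fell in preleukemia against mock (-0.65, SE 0.12, adjusted p = 0.0130), a call that was lost without preleukemia library 2 (-0.54, adjusted p = 0.118), and its -0.38 in leukemia against mock missed the threshold (adjusted p = 0.0551) except without mock library 1 (-0.45, adjusted p = 0.0381). Adssl1 held 65.5% and 65.97% in leukemia, 80.4% and 83.2% in preleukemia and 59.9% and 57.5% in mock of the summed RPKM of the pair, and the sum itself was 75.5 and 70.4 RPKM in leukemia, 114 and 113 in preleukemia and 78.1 and 81.3 in mock. The summed neutrophil markers were also highest in preleukemia, at 3852 and 8253 RPKM in libraries 1 and 2. So were the summed megakaryocyte markers, at 67.7 and 49.4 RPKM. The part of both lists in the Adssl1 result was not tested.

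**Figure D4:**
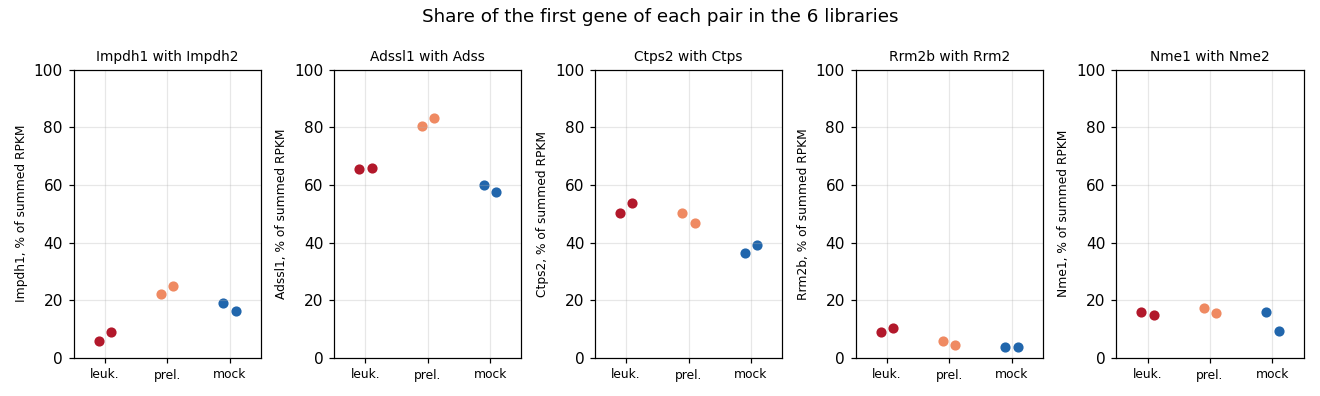
Share of the first-named gene in the summed RPKM of each pair of related enzymes, with 1 point per library (leuk., leukemia; prel., preleukemia). The Impdh1 share was 5.68% and 8.84% in leukemia, against at least 16.1% in the other libraries, and the Adssl1 share was 80.4% and 83.2% in preleukemia, against 57.5% to 66.0% elsewhere.

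The pyrimidine pathway had 1 called gene among 5, a CTP synthase, lower in leukemia against mock, where 13.5% of all genes were called lower. Ctps, which encodes the enzyme that aminates UTP to CTP, had 12.2 and 11.4 RPKM in leukemia, 15.1 and 15.2 in preleukemia and 19.6 and 16.6 in mock, a series in which the 3 groups did not overlap. It fell in leukemia against mock (-0.57, SE 0.11, adjusted p = 0.0139), but the call was lost without leukemia library 1 (adjusted p = 0.0687) and without leukemia library 2 (adjusted p = 0.105). Its relative Ctps2 had 12.4 and 13.4 RPKM in leukemia, 15.2 and 13.3 in preleukemia and 11.3 and 10.7 in mock, with both mock libraries the lowest, and did not pass (for leukemia against mock 0.21 with an adjusted p of 0.202, for preleukemia against mock 0.35 with 0.0749). The share of Ctps2 in the pair was 50.4% and 53.8% in leukemia, 50.2% and 46.7% in preleukemia and 36.5% and 39.1% in mock, higher in both Evi1 groups than in mock in every library. That share was not tested.

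The upstream enzymes of pyrimidine synthesis did not pass. Cad, the protein that carries the first 3 steps, had 19.6 and 17.1 RPKM in leukemia, 20.1 and 19.05 in preleukemia and 31.8 and 21.3 in mock. Both Evi1 groups lay below both mock libraries, but mock library 1 was well above mock library 2, and neither comparison with mock passed, with an adjusted p of 0.0992 for leukemia and 0.175 for preleukemia. Without mock library 2 both passed (-0.76, adjusted p = 0.00779 and -0.67, adjusted p = 0.0173). Dhodh, the mitochondrial dehydrogenase of the fourth step, was among the lowest, with 4.04 and 3.87 RPKM in leukemia, 2.998 and 3.68 in preleukemia and 4.54 and 3.65 in mock, and its mock libraries overlapped with those of either Evi1 group. Umps, which forms UMP, had 18.7 and 15.8 RPKM in leukemia, 23.7 and 21.03 in preleukemia and 25.99 and 20.2 in mock. Its leukemia libraries were the lowest without overlap (adjusted p = 0.102 against mock and 0.151 against preleukemia), and preleukemia and mock overlapped.

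Deoxynucleotide supply had 4 of 7 genes lower, none higher and 3 that did not pass in leukemia against mock, a median of -0.48, where 13.5% of all genes were called lower and 12.1% higher. The 4 lower calls became 0 without leukemia library 1 and 0 without leukemia library 2. They became 1 without preleukemia library 1, 1 without preleukemia library 2 and 1 without mock library 1, and 5 were lower without mock library 2. Rrm1 and Rrm2 encode the large and the small subunit of ribonucleotide reductase. Rrm2 (chromosome 12, 24708241 to 24714146, plus strand, ENSMUSG00000020649.11) had 25.1 and 23.4 RPKM in leukemia, 43.95 and 54.4 in preleukemia and 53.4 and 39.9 in mock. Both leukemia libraries lay below the other 4, and preleukemia and mock overlapped. It fell in leukemia against mock (-0.91, SE 0.16, adjusted p = 0.0103; ratio of mean RPKM 0.519) and in leukemia against preleukemia (-0.99, SE 0.16, adjusted p = 0.0105; ratio 0.492). Against mock the Rrm2 call was lost without leukemia library 1 (adjusted p = 0.0516) or leukemia library 2 (0.0678). Against preleukemia it was lost without preleukemia library 2 (adjusted p = 0.0913), leukemia library 1 (0.0620) or leukemia library 2 (0.0604), while the value stayed between -1.14 and -0.84 over the libraries left out.

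Rrm1 had 43.1 and 38.1 RPKM in leukemia, 53.8 and 51.6 in preleukemia and 67.6 and 50.5 in mock. It fell in leukemia against mock (-0.52, SE 0.15, adjusted p = 0.0452), with both leukemia libraries the lowest, but the call was lost without mock library 1 (-0.31, adjusted p = 0.0672), without either preleukemia library (0.0896 and 0.0892) and without leukemia library 1 or 2 (0.108 and 0.229). Rrm2b, the p53-induced small subunit used outside S phase, had 2.49 and 2.73 RPKM in leukemia, 2.74 and 2.44 in preleukemia and 2.09 and 1.63 in mock. Both Evi1 groups lay above both mock libraries, and neither comparison passed (adjusted p = 0.134 for leukemia and 0.156 for preleukemia against mock). Rrm2b made up 9.04% and 10.5% in leukemia, 5.88% and 4.29% in preleukemia and 3.77% and 3.92% in mock of the small subunit transcripts, by RPKM.

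Tk1, the cytosolic thymidine kinase of the salvage route, had 5.86 and 4.77 RPKM in leukemia, 7.36 and 8.16 in preleukemia and 11.1 and 7.67 in mock and fell in leukemia against mock (-0.71, SE 0.19, adjusted p = 0.0341). Without mock library 1 its value was -0.46 and did not pass (adjusted p = 0.0558), nor did it pass without preleukemia library 1 or 2 (0.0682 and 0.0680) or leukemia library 1 or 2 (0.0816 and 0.190). Dck, the deoxycytidine kinase that also activates cytarabine, had 17.5 and 14.5 RPKM in leukemia, 18.3 and 19.8 in preleukemia and 22.8 and 21.3 in mock, with no overlap between any groups, and fell in leukemia against mock (-0.45, SE 0.12, adjusted p = 0.0374). The Dck call was lost without mock library 1 (adjusted p = 0.0644), preleukemia library 1 or 2 (0.0792 and 0.0790) and leukemia library 1 or 2 (0.0643 and 0.238). Tyms, thymidylate synthase, had 5.68 and 4.51 RPKM in leukemia, 7.68 and 8.45 in preleukemia and 8.84 and 6.24 in mock. Its leukemia libraries were the lowest without overlap, and it did not pass (-0.48, SE 0.18, adjusted p = 0.0979 against mock; -0.58, SE 0.18, adjusted p = 0.0711 against preleukemia). Dctd, the deaminase that turns dCMP into dUMP for Tyms, went the other way, with 14.5 and 12.5 RPKM in leukemia, 9.52 and 8.01 in preleukemia and 11.4 and 7.33 in mock. Its leukemia libraries were the highest without overlap, but the adjusted p was 0.106 against mock and 0.0971 against preleukemia. Without mock library 1 Dctd passed against mock (0.80, adjusted p = 0.0111).

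**Figure D5:**
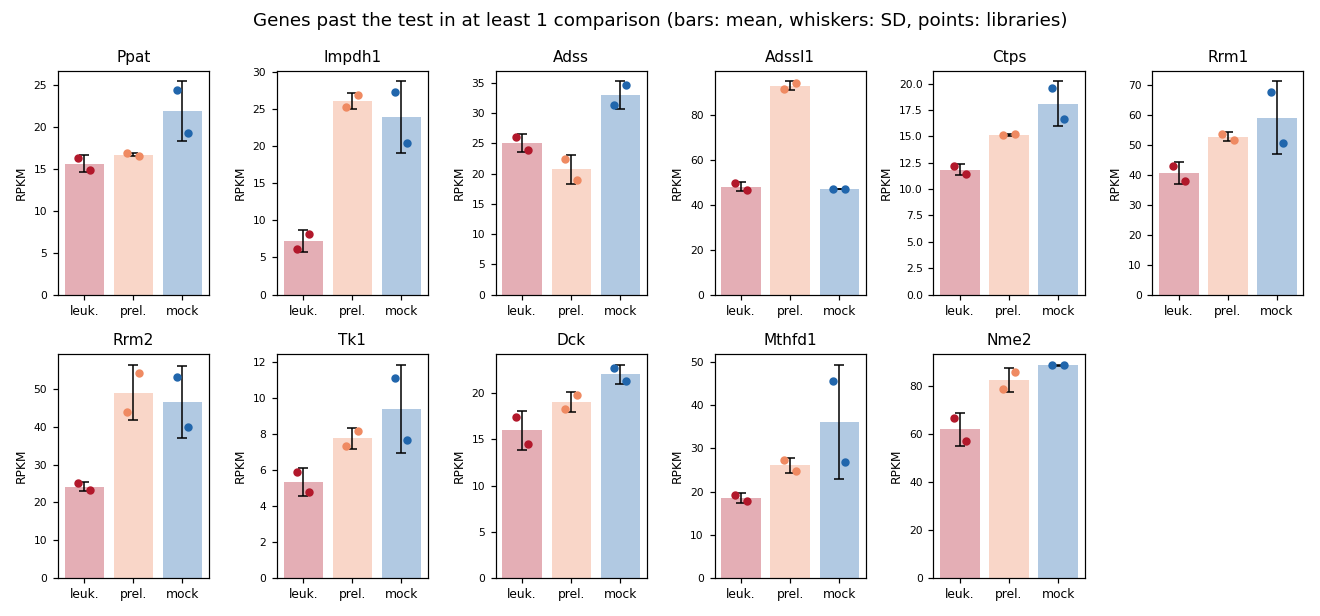
RPKM of the 11 genes called in at least 1 comparison, with the mean as a bar, the SD as whiskers and both libraries as points (leuk., leukemia; prel., preleukemia). Rrm2 stood at 25.1 and 23.4 RPKM in leukemia, below every other library, and the mock points of Mthfd1 lie far apart at 45.5 and 26.8 RPKM.

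Folate enzymes carry the carbon units that purine rings and thymidylate need. Mthfd1, the cytosolic enzyme with 3 activities that interconverts these folates, had 19.3 and 17.7 RPKM in leukemia, 27.3 and 24.8 in preleukemia and 45.5 and 26.8 in mock. It fell in leukemia against mock (-0.89, SE 0.23, adjusted p = 0.0312; ratio of mean RPKM 0.511). Both leukemia libraries were the lowest, preleukemia overlapped with mock, and the mock libraries differed 1.70-fold. Without mock library 1 the value was -0.51 and passed (adjusted p = 0.0171). It did not pass without preleukemia library 1 or 2 (0.0626 and 0.0622) or leukemia library 1 or 2 (0.103 and 0.150). Shmt1, the cytosolic serine hydroxymethyltransferase, had 12.99 and 11.1 RPKM in leukemia, 12.04 and 10.5 in preleukemia and 15.8 and 12.4 in mock and did not pass in any comparison. It shares 184 exon bases with Smcr8 on the opposite strand.

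Among the kinases that phosphorylate mono- and diphosphates, Nme2 was called. Nme2, a nucleoside diphosphate kinase, had 66.7 and 57.2 RPKM in leukemia, 78.8 and 85.9 in preleukemia and 88.9 and 88.6 in mock. The 3 groups did not overlap, with leukemia lowest. It fell in leukemia against mock (-0.52, SE 0.11, adjusted p = 0.0164) and in leukemia against preleukemia (-0.41, SE 0.11, adjusted p = 0.0439). The first call was lost without leukemia library 2 (adjusted p = 0.122). The second was lost without preleukemia library 1 or 2 (0.134 and 0.266) and leukemia library 1 or 2 (0.0988 and 0.253), and after both scalings. Its neighbour Nme1 had 12.5 and 9.90 RPKM in leukemia, 16.4 and 15.9 in preleukemia and 16.6 and 9.06 in mock, with the mock libraries 1.83-fold apart, the widest of the 30 genes, and did not pass. Without mock library 1 it passed as higher in preleukemia (0.77, adjusted p = 0.0128) and without mock library 2 as lower in leukemia (-0.54, adjusted p = 0.0399). Nme1 and Nme2 have very similar coding sequences and lie next to each other on chromosome 11 (Nme1 at 93956979 to 93968521 and Nme2 at 93949814 to 93956259, minus strand). The gene model Gm20390 spans both, shares 418 exon bases with Nme1 and 573 with Nme2, and had 8.50 and 9.35 RPKM in leukemia, 10.6 and 6.15 in preleukemia and 18.7 and 29.7 in mock, so the split of reads among these 3 rows is uncertain.

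The other 3 kinases did not pass. Cmpk1, which phosphorylates CMP and UMP, had 20.6 and 21.7 RPKM in leukemia, 27.7 and 25.95 in preleukemia and 23.9 and 21.1 in mock. Its preleukemia libraries were the highest without overlap (adjusted p = 0.144 against mock), and without mock library 1 this passed (0.33, adjusted p = 0.0405). Dtymk, the thymidylate kinase, differed least, with 39.6 and 37.4 RPKM in leukemia, 38.7 and 39.8 in preleukemia and 41.9 and 33.3 in mock and log2 differences of 0.04, -0.03 and 0.07 in leukemia against mock, leukemia against preleukemia and preleukemia against mock. The SE of each was 0.12, and both scalings turned the sign against preleukemia and that of preleukemia against mock. Guk1, the guanylate kinase, had 6.85 and 6.02 RPKM in leukemia, 7.66 and 8.49 in preleukemia and 8.22 and 7.15 in mock, with leukemia lowest without overlap (adjusted p = 0.237 against mock).

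A further list of nucleotide metabolism held 61 genes of salvage, folate metabolism, other kinases, breakdown and transport, of which 59 were in the table and 48 were tested. Leukemia against mock had 6 higher and 9 lower, leukemia against preleukemia 1 higher and 10 lower, and preleukemia against mock 8 higher and 5 lower. These were 31.2%, 22.9% and 27.1% of the 48, where 25.6%, 18.3% and 19.5% of all genes were called. With a library left out, the called genes ranged from 5 (without leukemia library 1) to 18 (without mock library 2) in leukemia against mock. They ranged from 3 (without preleukemia library 2) to 22 (without mock library 2) in leukemia against preleukemia and from 3 (without preleukemia library 2) to 14 (without either mock library) in preleukemia against mock. The medians were -0.19, -0.20 and 0.05. Samhd1, which cleaves deoxynucleotides, had 25.7 and 26.8 RPKM in leukemia, 23.02 and 23.6 in preleukemia and 10.3 and 10.1 in mock and rose in leukemia (1.28, SE 0.09, adjusted p = 0.000436) and preleukemia (1.12, SE 0.09, adjusted p = 0.00105) against mock. Gda, the guanine deaminase, had 14.00 and 24.7 RPKM in leukemia, 48.04 and 60.5 in preleukemia and 9.80 and 8.58 in mock and rose in preleukemia against mock (2.43, SE 0.25, adjusted p = 0.00212). Slc28a2, a concentrating transporter of purine nucleosides, had 1.29 and 1.33 RPKM in leukemia, 4.25 and 5.42 in preleukemia and 17.8 and 13.5 in mock and fell in leukemia (-2.84, SE 0.17, adjusted p = 0.000256) and preleukemia (-1.50, SE 0.17, adjusted p = 0.00284) against mock. Xdh, which oxidises hypoxanthine and xanthine, had 0.135 and 0.399 RPKM in leukemia, 0.799 and 1.39 in preleukemia and 3.99 and 9.57 in mock and fell in leukemia against mock (-2.53, SE 0.35, adjusted p = 0.00388). Ak4, a mitochondrial adenylate kinase, had 0.0102 and 0.318 RPKM in leukemia, 4.43 and 5.73 in preleukemia and 4.92 and 2.87 in mock and fell in leukemia against mock (-2.05, SE 0.25, adjusted p = 0.00249). These calls held without each library in turn.

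In purine salvage, 1 of 8 tested genes rose in preleukemia against mock, where 13.5% of all genes were called higher. Aprt, the adenine phosphoribosyltransferase, had 15.2 and 14.5 RPKM in leukemia, 22.4 and 24.2 in preleukemia and 14.1 and 12.97 in mock (0.74, SE 0.10, adjusted p = 0.00516), a call that was lost without preleukemia library 2 (adjusted p = 0.0664). Its hypoxanthine counterpart Hprt had 76.3 and 74.5 RPKM in leukemia, 98.3 and 93.8 in preleukemia and 87.8 and 68.5 in mock and did not pass. Among 5 tested genes of pyrimidine salvage and dUTP removal, Dut, which hydrolyses dUTP to dUMP, had 28.4 and 27.3 RPKM in leukemia, 40.9 and 34.7 in preleukemia and 48.8 and 38.8 in mock and fell in leukemia against mock (-0.63, SE 0.14, adjusted p = 0.0196), but did not pass without leukemia library 1 (adjusted p = 0.0865) or 2 (0.113). In the folate list Aldh1l1, which removes formyl groups from folate, had 0 and 0.0790 RPKM in leukemia, 1.90 and 2.46 in preleukemia and 1.33 and 1.03 in mock and fell in leukemia against preleukemia (-1.61, SE 0.17, adjusted p = 0.00264). Slc29a1, an equilibrative nucleoside transporter, had 14.3 and 11.6 RPKM in leukemia, 9.21 and 9.55 in preleukemia and 22.4 and 17.9 in mock and fell in preleukemia against mock (-1.02, SE 0.15, adjusted p = 0.00647), a call that was lost without preleukemia library 1 (adjusted p = 0.0529) or 2 (0.0573).

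Genes of replication were set beside the deoxynucleotide genes. Of 16 genes of replication licensing and S phase, 9 were lower in leukemia than in mock and none higher, with a median of -0.48, where 13.5% of all genes were called lower. The count was 3 without leukemia library 1, 0 without leukemia library 2, 3 without preleukemia library 1, 3 without preleukemia library 2 and 5 without mock library 1. The summed level of the 16 was 674 and 574 RPKM in leukemia, 698 and 673 in preleukemia and 899.5 and 759 in mock. Cdt1, which loads the helicase onto origins, had 7.09 and 6.67 RPKM in leukemia, 8.15 and 8.65 in preleukemia and 11.7 and 10.5 in mock (-0.62, SE 0.11, adjusted p = 0.0103), and its call was lost without leukemia library 1 (adjusted p = 0.0607) or 2 (0.0852). Mcm4, a subunit of the replicative helicase, had 42.9 and 38.02 RPKM in leukemia, 47.4 and 44.4 in preleukemia and 67.7 and 58.1 in mock (-0.62, SE 0.12, adjusted p = 0.0109; adjusted p = 0.0859 without leukemia library 2). In leukemia against preleukemia 1 of the 16 was lower, where 13.0% of all genes were called lower. In preleukemia against mock 2 were lower, where 6.02% of all genes were called lower. The 10 mitosis genes gave no call in any comparison. Their medians were -0.06 in leukemia against mock, -0.44 in leukemia against preleukemia and 0.39 in preleukemia against mock. All 10 had both leukemia libraries below both preleukemia libraries, against 46.0% of all genes. For 5 of the 10 both preleukemia libraries lay above both mock libraries, against 37.2% of all genes. For 1 of the 10 both leukemia libraries lay below both mock libraries, against 35.5% of all genes. The sum of the 10 mitosis genes was 223 and 189 RPKM in leukemia, 269 and 278 in preleukemia and 271 and 176 in mock. The part of replication in the values of the deoxynucleotide genes was not tested.

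Myc, a transcription factor known to act on many genes of nucleotide synthesis, had 145 and 129 RPKM in leukemia, 88.5 and 99.1 in preleukemia and 97.6 and 48.05 in mock. Its leukemia libraries lay above the mock libraries, and it did not pass (0.99, SE 0.29, adjusted p = 0.0505 in leukemia against mock). Of 8 tested genes of the Myc family, 1 rose and 1 fell in leukemia against mock, where 12.1% of all genes were called higher and 13.5% lower. In leukemia against preleukemia none rose and 2 fell, where 5.27% of all genes were called higher and 13.0% lower. In preleukemia against mock 3 rose and none fell, where 13.5% of all genes were called higher and 6.02% lower. Mycn, a close relative of Myc, had 0 and 0.0309 RPKM in leukemia, 6.28 and 4.67 in preleukemia and 1.74 and 0.872 in mock and fell in leukemia against preleukemia (-2.66, SE 0.22, adjusted p = 0.00164). Mxd4, which competes with Myc for Max, had 31.6 and 34.3 RPKM in leukemia, 27.7 and 27.4 in preleukemia and 18.9 and 16.6 in mock and rose in leukemia against mock (0.86, SE 0.10, adjusted p = 0.00255). The Mxd4 call and this Mycn call held without each library in turn. Mycn also fell in leukemia against mock (-1.16, SE 0.22, adjusted p = 0.0125), which was lost without leukemia library 1 (adjusted p = 0.0688) or 2 (0.0664).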

How the data were processed

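RNA of 6 libraries of sorted mouse marrow cells was sequenced. The values were taken as RPKM (reads per kilobase of transcript, scaled to library size) made by the authors before they deposited the table. Its header names no unit, so RPKM was inferred from column totals that differ and low values that step with exon length. Library totals of 16.9 to 21.6 M reads were chosen as those that brought the most low values near whole reads. With them 64.3% to 66.2% of values under 20 reads came within 0.02 of a whole number. Chance alone gives 4% for a total not chosen this way, so the share is no independent check of the totals. The remaining values were not near whole reads, so reads were not recovered and no count test was run. CASAVA 1.8.2 and GRCm38 are named, per the submitters' processing notes. Aligner, counter and annotation: not given in the sources used here.

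Genes that reached 1 RPKM in 2 or more libraries entered the test, made with limma 3.58.1 (R 4.3.3, trended variance) on log2(RPKM + 1), two-sided, with 1 spread for the 3 groups (3 residual and 3.70 prior degrees of freedom) and Benjamini-Hochberg adjustment within each comparison. Every difference is on this scale, which understates changes of low genes. The fit was also run on simulated data with the same spread for every gene and library. The real libraries differ from this, so that run does not show how reliable the calls are. The 14 alternatives were other pseudocounts (0.1 and 5), no filter, scaling by trimmed means, quantile normalization, the 4 libraries compared alone, no trend, a replicate block and leaving out each library. All 30 genes are named. Of other nucleotide and context genes, up to 4 per list and comparison with the smallest p among those called could be named, and those given were picked from them with their values seen. Hprt, Kit and Myc were named besides. The members and lists were chosen with earlier results of these data known. Gene positions come from GENCODE M21 (GRCm38) and promoters from RefSeq. Some marker genes are not reported here and are in none of the marker sums.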

Additional observations from a re-analysis of the deposited data

How the results depend on the processing

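Leaving out 1 library leaves a group with a lone library, which is assumed to vary like the others. The number of genes changed over all genes was 1302 without a filter and 3419 with the 4 libraries compared in leukemia against preleukemia, and 1387 with the 4 libraries compared in preleukemia against mock. With each library left out it ranged from 980 to 3697 in leukemia against mock, 404 to 3453 in leukemia against preleukemia and 463 to 3766 in preleukemia against mock. Of the 30 genes, those lower in leukemia against mock numbered 4 without a filter, 4 with the 4 libraries compared and 1 to 15 with a library left out, and those higher 1 with the replicate block and 0 to 1 with a library left out. In leukemia against preleukemia the lower genes numbered 11 with the 4 libraries compared and 2 to 11 with a library left out. The higher genes numbered 2 after quantile normalization, 1 with the 4 libraries compared, 1 with the replicate block and 0 to 1 with a library left out. In preleukemia against mock the lower genes numbered 3 after scaling by trimmed means, 3 after quantile normalization, 3 with the replicate block and 0 to 5 with a library left out, and the higher genes 1 to 3. Other pseudocounts (0.1 and 5) moved none of these counts of the 30 genes. The replicate numbers are not said to pair libraries, and the correlation of the deviations of same-numbered libraries was 0.01 between leukemia and mock, 0.18 between leukemia and preleukemia and 0.12 between preleukemia and mock, so the block shares only a number. The calls of Impdh1 and Adssl1 held under all 14 alternatives. In leukemia against mock the calls of Ppat, Rrm1, Dck, Tk1 and Mthfd1 were lost without a filter and with the 4 libraries compared. Those of Ppat, Rrm1 and Dck were also lost without the trend. The Nme2 call in leukemia against preleukemia was lost without a filter and without the trend. For genes of the 30 that did not pass, the sign changed under some settings, none was called under the setting that turned its sign, and the cause was not tested. Some of these genes were called with their first sign when a library was left out, as Nme1 was.

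In leukemia against mock, with a library left out, the differences ranged over Gart -0.47 to 0.060, Paics -0.16 to 0.081, Adssl1 -0.010 to 0.077, Dhodh -0.16 to 0.093, Nme1 -0.54 to 0.27, Dtymk -0.12 to 0.20. In leukemia against preleukemia the differences were after scaling by trimmed means Gart 0.057, Pfas 0.046, Gmps 0.052, Cad 0.0025, Dtymk 0.067 and after quantile normalization Ppat 0.029, Gart 0.064, Pfas 0.074, Gmps 0.079, Cad 0.035, Dtymk 0.091. With a library left out they ranged over Gart -0.13 to 0.060, Pfas -0.10 to 0.010, Atic -0.012 to 0.11, Impdh2 -0.0016 to 0.26, Gmps -0.13 to 0.059, Cad -0.18 to 0.0060, Rrm2b -0.054 to 0.069, Shmt1 -0.015 to 0.19, Dtymk -0.067 to 0.013. In preleukemia against mock the differences were after scaling by trimmed means Dtymk -0.0038, Guk1 -0.00090 and after quantile normalization Rrm2 -0.016, Tyms -0.00060, Dtymk -0.0082, Guk1 -0.032. With a library left out they ranged over Gart -0.43 to 0.10, Adsl -0.33 to 0.076, Impdh1 -0.065 to 0.33, Umps -0.21 to 0.14, Rrm1 -0.35 to 0.058, Rrm2 -0.12 to 0.29, Tyms -0.12 to 0.32, Tk1 -0.47 to 0.012, Dctd -0.34 to 0.22, Nme1 -0.039 to 0.77, Dtymk -0.092 to 0.23, Guk1 -0.024 to 0.15.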
